A study of Rattus norvegicus with 26 samples.

Results

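The cytosolic ribosomal protein genes were compared across primary cultures of 4 rat brain cell types. Members were all genes whose symbol in the platform's annotation has the form of a small-subunit (Rps) or large-subunit (Rpl, Rplp) ribosomal protein, with Rpsa added and the S6 kinase genes left out. The rule found 48 genes among the 14217 genes with a probe set of 1 symbol. Of these, 15 encode proteins of the 40S (small) subunit or their paralogs and 33 encode proteins of the 60S (large) subunit or their paralogs. Where a gene had several probe sets, the one of highest mean signal on the 26 arrays stood for it, and the choice used no difference between cultures. The 48 genes are not the whole ribosome, because 36 further probe sets carried several symbols, at least 1 of them ribosomal, and gave no member.

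The series holds total RNA from neuronal, astrocytic, oligodendrocytic and microglial cultures, each prepared from the cerebral cortices of rat pups at postnatal day 1 and each with 4 biological replicates. No genotype, treatment or strain is given in the labels. A further 10 arrays hold mixtures of these RNAs, with 2 replicates of each mixture. The mixtures NA1, NA2 and NA3 had neuronal RNA fractions of 0.25, 0.5 and 0.75, with astrocytic RNA as the rest. In NAO the fractions were 0.5 neuronal, 0.25 astrocytic and 0.25 oligodendrocytic. In NAOM they were 0.5, 0.2 and 0.2 in that order, with 0.1 microglial. The deposited values are log2 expression values, so a difference of 1 is a 2-fold change. A culture holds many cells and an array receives RNA, so fewer cells of a type and less ribosomal protein mRNA per cell cannot be told apart. The values are relative to each array's other RNAs, so a lower value is a lower share of RNA and gives no amount per cell. The p-values measure the spread between these replicates only.

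A ribosome is built from ribosomal RNA and about equal amounts of each ribosomal protein, and the protein genes are among the most strongly transcribed genes of any cell. Their mRNAs typically begin with a run of pyrimidines, the 5′ terminal oligopyrimidine or TOP motif, through which mTORC1 and the binding protein Larp1 control their translation. Growing and dividing cells make many ribosomes, whereas neurons no longer divide and place part of their ribosomes in dendrites and axons.

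Most listed markers of the labelled cell were above the array median on every array of its culture. This held for 8 of 8 neuron, 6 of 6 astrocyte, 6 of 6 oligodendrocyte and 7 of 8 microglia markers. All 8 neuronal markers passed the test as higher in neurons. Of the 6 astrocyte markers, 4 were also above the median on every neuronal array, and 4 on every oligodendrocytic array. The mean of the 6 ranged from 7.38 to 9.78 in neuronal arrays and from 10.59 to 11.80 in astrocytic arrays. In oligodendrocytic arrays that mean was 6.65 to 9.33, and in microglial arrays 5.82 to 6.14. The mean of 8 microglia markers was 7.83 to 8.71 in oligodendrocytic arrays and 9.59 to 10.44 in microglial arrays. It was at most 5.27 in astrocytic and 4.31 in neuronal arrays. In oligodendrocytic arrays, too, 7 of the 8 were above the median on every array. Oligodendrocyte markers had a mean of 7.90 to 9.95 in microglial arrays and 10.61 to 11.99 in oligodendrocytic arrays. It was at most 7.43 in astrocytic and 5.71 in neuronal arrays. All 6 were above the median on every microglial array as well. Of the 6 fibroblast and meningeal markers, 4 were above the array median on every astrocytic array, and 0 were in each other culture. Among them Ogn was even over the astrocytic arrays (mean 10.05, SD 0.07), while Col1a2 was not (mean 9.32, SD 2.53). The mean of the 6 markers was at most 5.80 in the other cultures. This mean was 6.57 to 6.66 in astrocyte replicates 1 to 3, and astrocyte replicate 4 stood apart at 9.23. Microglia replicate 4 is described as a mixture in 1 label and as a microglial culture in its title and cell type, and was kept as a culture. Values without these libraries are given below where they changed a count.

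Relative to the other RNAs on the array, ribosomal protein mRNA was lower in neurons than in the glial cultures. Of the 48 members, 42 were lower in neurons, compared with the mean of the 3 glial cultures, at a Benjamini-Hochberg adjusted p under 0.05 (limma), and 0 were higher, with 0 also at an unadjusted p under 0.05. Over all 31042 probe sets tested, 26.4% were lower and 22.5% higher by the same rule. The median difference of the members was -0.61, a 1.53-fold lower value, beside a median of -0.07 over all probe sets. Differences were moderate in size: 7 members were lower by a log2 difference of at least 1, beside 10.7% of all probe sets. With neuron replicates 3 and 4 left out, the pair with the most astrocyte marker signal, 42 members were again lower.

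Both subunits took part. In the small subunit, 14 of 15 members were lower in neurons, with a median difference of -0.66. In the large subunit, 28 of 33 were lower, with a median of -0.61. The members that did not pass were Rps29, Rpl26l1, Rpl28, Rpl30, Rpl39l1 and Rpl3l. Every neuronal array lay below every array of the other cultures for 34 of the 48 members, beside 10.7% of all probe sets. An F test over the 4 cultures called 44 of 48 members, beside 64.9% of all probe sets, and missed Rpl26l1, Rpl30, Rpl35 and Rps29.

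**Figure D1:**
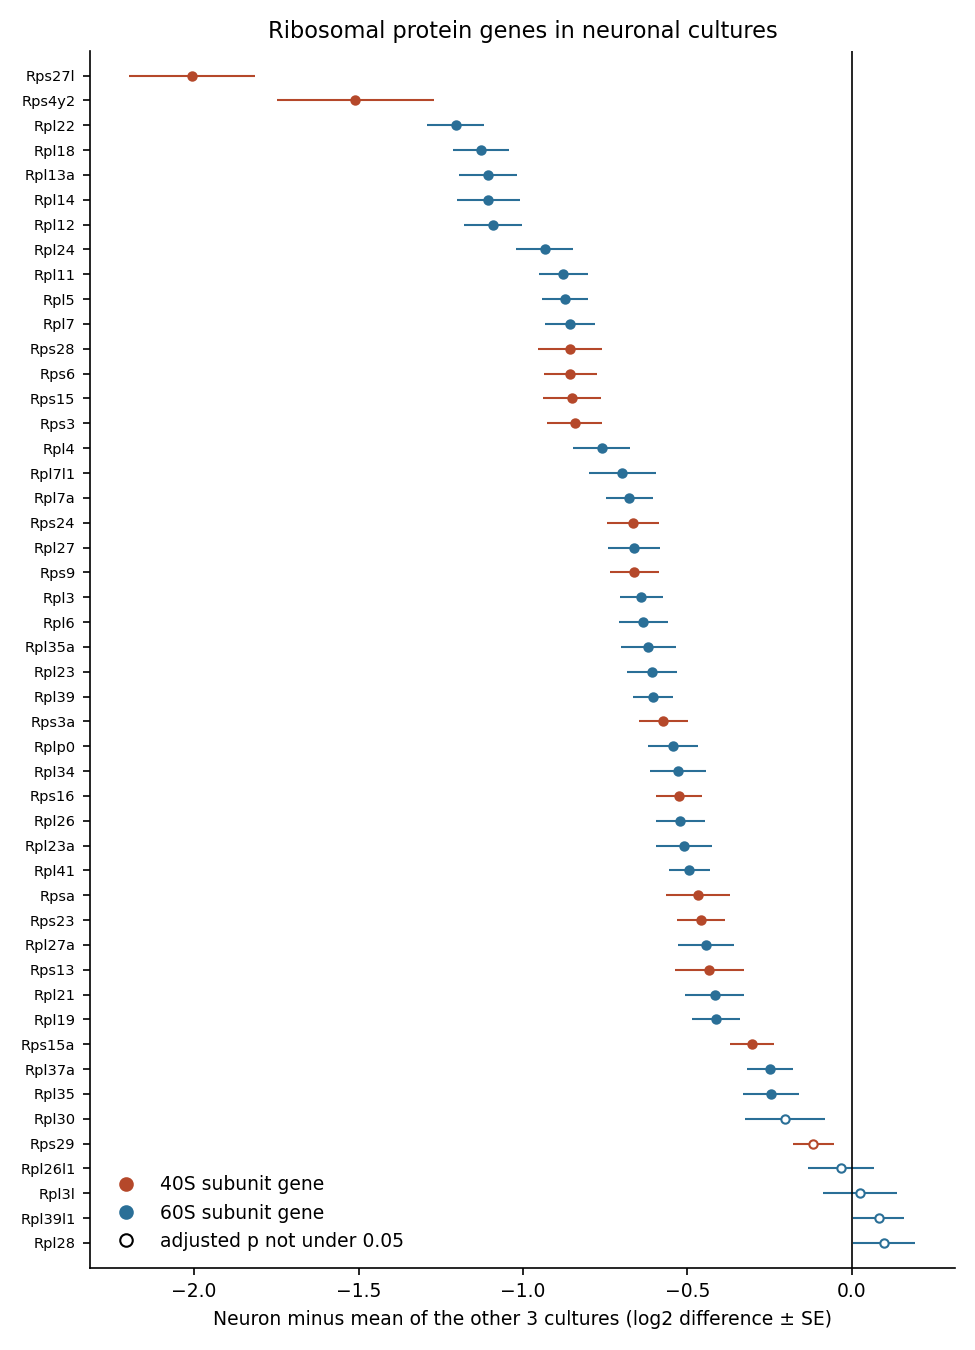
Log2 difference of each of the 48 members between neuronal cultures and the mean of the other 3 (horizontal axis), with its standard error from limma as a bar, 1 line per gene, coloured by subunit. Open points did not pass the test. Most points lie left of 0, from -2.01 for Rps27l to 0.10 for Rpl28.

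A group of 38 members with a mean log2 value of at least 10 over the 16 culture arrays held most of the signal, and is called the bright members here. The limit of 10 was set after the values had been seen, and the bright members ran from 11.38 to 13.66 while the other 10 ran from 3.46 to 9.04. The mean over the bright members was 11.849, 12.049, 12.049 and 12.001 in the 4 neuronal arrays. It was 12.39, 12.71, 12.71 and 12.66 in the astrocytic arrays and 12.56, 12.59, 12.72 and 12.57 in the oligodendrocytic arrays. In the microglial arrays it was 12.73, 12.72, 12.70 and 12.78. The neuronal arrays lay below all 12 other arrays, the 3 glial cultures overlapped, and the microglial arrays had the smallest spread (SD 0.03, n = 4, against 0.15 in astrocytes). All 38 bright members had their lowest culture mean in neurons, and 37 of them were called lower, beside 26.4% of all probe sets. Their highest culture mean was in microglia for 30, in astrocytes for 6 and in oligodendrocytes for 2. Shares of all probe sets by lowest or highest culture were not computed, so these ranks only describe the bright members.

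**Figure D2:**
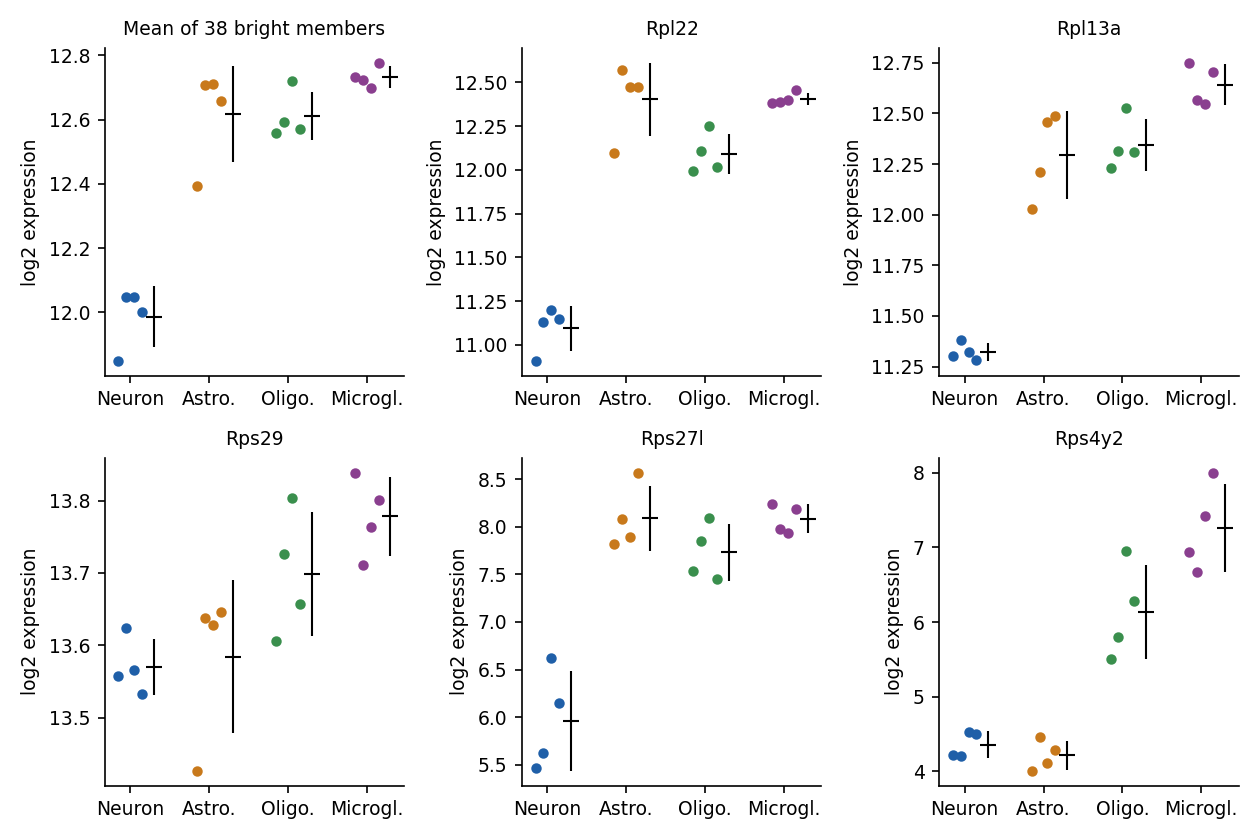
Log2 expression of the mean of the 38 bright members and of 5 single genes in the 16 culture arrays, 1 point per array, with the culture mean and SD (n = 4) as a tick and bar, and a separate vertical axis in each panel. Neuronal points lie below the others for Rpl22 and Rpl13a, while the cultures overlap for Rps29.

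Among 60S members, Rpl22, an RNA-binding protein of the large subunit, had the largest neuronal difference. Its values were 10.91, 11.13, 11.20 and 11.14 in neurons and 12.09, 12.57, 12.47 and 12.47 in astrocytes. They were 11.995, 12.11, 12.25 and 12.01 in oligodendrocytes and 12.38, 12.38, 12.40 and 12.46 in microglia. The neuronal values were separated from all others by a wide gap. The difference was -1.20 ± 0.09 (SE), a 2.30-fold lower value, with an adjusted p of 1.12e-08 (limma, Benjamini-Hochberg). Rpl22 was also the only member higher in astrocytes than in oligodendrocytes.

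Rpl13a, a large-subunit protein that can also leave the ribosome to silence inflammatory mRNAs, read 11.30, 11.38, 11.32 and 11.28 in neurons. It read 12.03, 12.21, 12.46 and 12.48 in astrocytes, 12.23, 12.32, 12.53 and 12.31 in oligodendrocytes and 12.75, 12.56, 12.54 and 12.71 in microglia. Neurons were lowest and every microglial array was above every other array. The neuronal difference was -1.11 ± 0.09, with an adjusted p of 3e-08 (limma, Benjamini-Hochberg). Microglia were the highest culture on every array for 5 members, Rpl13a, Rpl24, Rps15, Rps3a and Rps9, beside 6.40% of all probe sets. The gaps to oligodendrocyte replicate 3 were narrow. The lowest microglial value was 12.3986 against 12.3979 there for Rps15, and 12.8623 against 12.8372 for Rps3a.

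Rpl18, a core protein of the large subunit, read 11.26, 11.41, 11.68 and 11.51 in neurons and 12.13, 12.43, 12.41 and 12.41 in astrocytes. It read 12.52, 12.73, 12.85 and 12.69 in oligodendrocytes and 12.80, 12.73, 12.65 and 12.78 in microglia. Neurons were lowest, astrocytes lay between, and oligodendrocytes and microglia overlapped. The neuronal difference was -1.13 ± 0.09 (adjusted p 2.25e-08, limma with Benjamini-Hochberg).

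Rpl14 and Rpl12, which lies at the base of the ribosomal stalk, showed the same split between neurons and glia. Rpl14 read 10.39 to 10.68 in neurons and 11.33 to 11.83 over the 12 glial arrays, a neuronal difference of -1.10 ± 0.09. Rpl12 read 11.23 to 11.63 in neurons and 12.32 to 12.75 over the glial arrays, a difference of -1.09 ± 0.09. Neither gene overlapped between neurons and glia. Rpl24, part of a bridge between the subunits, differed by -0.93 ± 0.09, and Rplp0, the protein that anchors the stalk, by -0.54 ± 0.08.

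Rpl5, which carries the 5S ribosomal RNA into the large subunit, read 11.92, 12.03, 11.999 and 11.98 in neurons and 12.68 to 13.03 over the glial arrays. The groups did not overlap, and the difference was -0.87 ± 0.07 (adjusted p 4.05e-08, limma with Benjamini-Hochberg). Its partner in that complex, Rpl11, differed by -0.88 ± 0.07. Rpl11 was named for this role after its values had been seen.

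Among 40S members, Rps28 read 11.48, 11.73, 11.94 and 11.68 in neurons and 12.10 to 12.80 over the glial arrays, with no overlap and a difference of -0.86 ± 0.10. Rps15, a protein near the decoding site, read 11.18, 11.36, 11.68 and 11.48 in neurons and 11.87 to 12.48 over the glial arrays, a difference of -0.85 ± 0.09. Rpsa, the laminin receptor precursor that is also a small-subunit protein, read 11.93, 12.01, 11.70 and 11.77 in neurons. Its neuronal range reached into the astrocytic one through astrocyte replicate 1, at 11.91, and its difference was -0.47 ± 0.10. Rps6, the substrate of the S6 kinases and named for that role after its values had been seen, differed by -0.86 ± 0.08.

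Some bright members differed little. Rps29, a small zinc-binding protein of the 40S subunit, read 13.56, 13.62, 13.57 and 13.53 in neurons and 13.43, 13.64, 13.63 and 13.65 in astrocytes. It read 13.61, 13.73, 13.80 and 13.66 in oligodendrocytes and 13.84, 13.71, 13.76 and 13.80 in microglia. Neurons and astrocytes overlapped, and the neuronal difference of -0.12 ± 0.06 did not pass the test (adjusted p 0.146, limma with Benjamini-Hochberg). Rpl35, which sits at the exit of the peptide tunnel, differed by -0.25 ± 0.09, Rpl37a by -0.25 ± 0.07 and Rps15a by -0.30 ± 0.07. These 3 passed the test, but not when the culture arrays were quantile normalized alone, where their differences were -0.04, -0.11 and -0.05. The Rpl35 call was also lost without neuron replicate 1, at -0.17.

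The start sites of the 7 members lower in neurons by at least 1 are shown, because a TOP mRNA begins with its pyrimidine run. Those of Rpl35 and Rps15a, which passed the test with small differences, are shown with them. RefSeq promoter entries on the rat build GRCr8 were matched for 41 of the 48 members. Each sequence covers 30 bases around the annotated start, is written 5′ to 3′ on the gene's strand, and has in capitals the part of the longest run of C or T that lies in it.
Rps27l, chr8:76443641-76443670, plus strand: tagtttattcatttgtcattatttgtggtg
Rps4y2, chr4:183000895-183000924, plus strand: tgcgcgcgcagCTCTCCTCactcgcttgtg
Rpl22, chr5:168117946-168117975, plus strand: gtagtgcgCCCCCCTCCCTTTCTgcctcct
Rpl18, chr1:105325253-105325282, plus strand: TTTCTggacctggtctagcaggaggcgcca
Rpl13a, chr1:104748907-104748936, minus strand: cgccaagaCCTCTTCCTTTCCTaggcggct
Rpl14, chr8:129163604-129163633, plus strand: agggcgggCCCTCTCCCTTCTCgctgagcg
Rpl12, chr3:36661923-36661952, plus strand: gcggagcaacatccgTCTTTTCggctttcg
Rpl35, chr3:43165911-43165940, minus strand: gccccgCCCCTTCCTCTTTCTCTCgaaccg
Rps15a, chr1:181860275-181860304, minus strand: aaccccggcgTTTTCTTTCCacagtcacca
Between 30 bases before and 20 bases after the start, the longest run had 15 bases in Rpl22, 14 in Rpl13a and 14 in Rpl14, but 8 in Rps4y2, 7 in Rpl18, 7 in Rpl12 and 3 in Rps27l. It had 18 bases in Rpl35 and 10 in Rps15a. Members with large differences thus had both long and short runs near the annotated start. A run counted here need not be part of the mRNA: in Rpl13a it began at position -15 and lay wholly before the start. Where transcripts start in these cultures was not measured, so the runs do not show which members have a TOP motif.

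A run of at least 8 C or T between 30 bases before and 20 bases after the start was found in 27 of the 41 members, or 65.9%, against 19.9% of the 27457 promoter entries. The median longest run was 10 in the members and 5 over all entries. Among bright members with an entry, the median neuronal difference was -0.64 in the 22 with such a run and -0.64 in the 10 with a shorter one. This split is by letters near the annotated start and does not separate TOP mRNAs from others. Other motifs were searched on both strands of the whole entries, from 250 bases before to 50 bases after the start. CTTCCGG, the core letters bound by Ets factors, whose first bases can lie within a pyrimidine run, was in 10 of 41 members (24.4%, against 9.22% of all entries). CACGTG, the E-box bound by Myc, was in 3 (7.32% against 6.65%), and AAGATGGC, the letters of the Yy1 motif, in 4 (9.76% against 3.44%). A match describes these letters only.

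In pairwise comparisons neurons were below each glial culture. Of the 48 members, 39 were lower in neurons than in astrocytes (22.7% of all probe sets), 39 lower than in oligodendrocytes (21.6%) and 44 lower than in microglia (28.1%). Rpl39l1 was the only member higher in neurons than in astrocytes, by 0.30 ± 0.09 (21.6% of all probe sets were higher), and the call was lost without neuron replicate 1. Its signal was the lowest of the 48 members, with culture means of 3.22 to 3.62, below the median of every culture array. No member was higher in neurons than in oligodendrocytes or microglia at an adjusted p under 0.05 (limma; 19.7% and 23.1% of all probe sets were higher), with 0 and 1 at an unadjusted p under 0.05. These 3 comparisons share the neuronal arrays.

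The glial cultures differed from each other in few members. Between astrocytes and oligodendrocytes, Rpl22 was higher in astrocytes by 0.31 ± 0.11 (16.4% of all probe sets were higher), and 5 members were lower (17.9%). Those 5 were Rps4y2, Rpl28, Rpl7l1, Rpl18 and Rpl39l1. Rpl28 and Rpl39l1 had low signal, with culture means of 4.28 to 4.81 and 3.22 to 3.62, below the median of every culture array. Between oligodendrocytes and microglia, Rpl28 and Rpl7l1 were higher in oligodendrocytes, by 0.51 ± 0.12 and 0.40 ± 0.12 (13.5% of all probe sets were higher). Rps4y2, Rpl22 and Rpl21 were lower there (13.4%). Shares of members called in these pairs were below the shares of all probe sets. The call on Rpl22 against astrocytes was lost without any 1 of astrocyte replicates 2, 3 and 4 or oligodendrocyte replicates 1, 2 and 4. The 3 members lower in oligodendrocytes than in microglia became 7 without oligodendrocyte replicate 3, and 1 without any 1 of the other oligodendrocytic or the microglial arrays. Without oligodendrocyte replicate 3 the 5 lower in astrocytes than in oligodendrocytes became 3, and the 2 higher in oligodendrocytes than in microglia became 1 without oligodendrocyte replicate 3 or 4 or microglia replicate 3 or 4.

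Astrocytes were below microglia in 11 members (21.0% of all probe sets), and above in 0 (17.4%), with 0 also at an unadjusted p under 0.05 (limma). The share of members below microglia was near that of all probe sets and is no result about the members. The 11 were Rps4y2, Rpl3l, Rpl39l1, Rpl18, Rpl13a, Rps15, Rpl39, Rpl24, Rpl35a, Rps9 and Rps23. Among them Rpl3l and Rpl39l1 had low signal. Apart from Rps4y2 their differences were small, from -0.49 ± 0.14 for Rpl3l to -0.23 ± 0.09 for Rps23. The count rested on single arrays: it was 5 without astrocyte replicate 1, 7 without astrocyte replicate 2 and 6 without microglia replicate 4. Astrocyte replicate 1 had the lowest mean of the astrocytic arrays over the bright members, and how its low values arose was not tested.

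Set against the mean of the other 3 cultures, which includes the low neurons, each glial culture had more members higher than lower. Microglia had 38 members higher (24.0% of all probe sets) and 1 lower, the low-signal Rpl28 (21.2%), with a median difference of 0.31. Oligodendrocytes had 16 higher (15.6%) and 0 lower (15.2%; limma, 0 also at an unadjusted p under 0.05), with a median of 0.15. Astrocytes had 15 higher (18.9%) and 4 lower (22.2%), with a median of 0.13. The astrocytic count of 15 was 24 without astrocyte replicate 1 and 9 without astrocyte replicate 2 or 3, and the 4 lower were 2 without astrocyte replicate 1 or 3. The oligodendrocytic count was 6 without oligodendrocyte replicate 3 and 10 without oligodendrocyte replicate 4. The microglial call on Rpl28 was lost without any 1 of 9 arrays, among them microglia replicates 2, 3 and 4.

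With a log2 difference of at least 1 added to the call, 4 members were lower and 0 higher in neurons than in astrocytes (limma, 0 also at an unadjusted p under 0.05), beside 3712 and 3735 of the 31042 probe sets. By the same rule 5 members were lower in neurons than in oligodendrocytes and 10 lower than in microglia, beside 10.6% and 11.6% of all probe sets. None was higher in neurons than in oligodendrocytes, microglia or the mean of the 3 (limma, 0 also at an unadjusted p under 0.05), beside 11.0%, 14.1% and 11.8%. Outside the neuronal comparisons Rps4y2 was the only member to reach this size. It was lower in astrocytes and higher in microglia than in the mean of the other 3 (7.55% and 6.30% of all probe sets). It was also lower in astrocytes than in oligodendrocytes (7.85%), lower in astrocytes than in microglia (7.05%) and lower in oligodendrocytes than in microglia (4.29%). The opposite directions, and both directions for oligodendrocytes against the mean of the other 3, had 0 members (limma, 0 also at an unadjusted p under 0.05). Beside these zeros stood 8.14% higher in astrocytes, 8.95% lower in microglia, 5.40% higher and 4.61% lower in oligodendrocytes, 8.04% and 9.13% higher in astrocytes than in oligodendrocytes and in microglia, and 6.27% higher in oligodendrocytes than in microglia. Without oligodendrocyte replicate 3 the 5 members lower in neurons than in oligodendrocytes were 3.

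Single glial cultures were separated from all other arrays for few members. Besides the 5 members for which microglia were highest, oligodendrocytic arrays were all above the others for 1, Rpl7l1 (2.88% of all probe sets). Astrocytic arrays were all below the others for the low-signal Rpl39l1 alone (3.99% of all probe sets) and all above for 0 members (6.24%). Oligodendrocytic arrays were all below for 0 members (1.06%) and microglial arrays all below for 0 (3.13%). Neuronal arrays were all above the others for 0 members (12.1%).

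The paralogs differed among themselves in their distribution over the cultures. Rps27l, a paralog of Rps27 known as a target of p53, read 5.47, 5.62, 6.62 and 6.15 in neurons and 7.82, 8.08, 7.89 and 8.57 in astrocytes. It read 7.53, 7.85, 8.09 and 7.45 in oligodendrocytes and 8.24, 7.98, 7.94 and 8.19 in microglia. The neuronal arrays were lowest without overlap, and the glial cultures overlapped. The difference of -2.01 ± 0.19, a 4.02-fold lower value, was the largest of the 48 (adjusted p 2.58e-07, limma with Benjamini-Hochberg). The higher pair of neuronal values came from replicates 3 and 4, which also had the most astrocyte marker signal, and its part in those values was not tested.

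Rps4y2, a copy of the small-subunit gene Rps4 by its symbol, divided the cultures differently. It read 4.22, 4.20, 4.53 and 4.50 in neurons and 4.01, 4.46, 4.12 and 4.28 in astrocytes. It read 5.51, 5.80, 6.95 and 6.28 in oligodendrocytes and 6.94, 6.67, 7.42 and 8.001 in microglia. Neurons and astrocytes overlapped at a low level, and oligodendrocytes and microglia lay above both. Astrocytes were lower than microglia by -3.04 ± 0.29 and lower than oligodendrocytes by -1.92 ± 0.29, and oligodendrocytes lower than microglia by -1.12 ± 0.29. The mean of the microglia markers was likewise highest in microglia and next highest in oligodendrocytes, and its part in the Rps4y2 values was not tested. The difference between oligodendrocytes and microglia no longer reached 1 with its call without oligodendrocyte replicate 1 or microglia replicate 4.

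Rpl7l1, an Rpl7-like gene, was highest in oligodendrocytes, at 9.45, 9.33, 9.61 and 9.62, against 8.38 to 8.79 in neurons, 8.73 to 9.20 in astrocytes and 8.93 to 9.22 in microglia. Every oligodendrocytic array was above every other array, which held for no other member. Its second probe set had the same order of culture means at the extremes, with a neuronal difference of -0.84 against -0.70 for the probe set used. The main copy Rpl7 was lower in neurons by 0.86 on the log2 scale and did not share the oligodendrocytic maximum. Rpl3l, the striated-muscle paralog of Rpl3, read 3.91 to 4.70 in all cultures, and Rpl26l1 read 4.76 to 5.36. Neither passed the test in neurons: the differences were 0.02 ± 0.11 and -0.03 ± 0.10, and each changed sign when single arrays were left out. Their main copies Rpl3 and Rpl26 differed by -0.64 ± 0.07 and -0.52 ± 0.08.

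Some core genes had low signal on the probe set used. Rps13 read 3.91 to 4.81, Rpl30 3.68 to 4.66 and Rpl28 4.10 to 5.01 over the 16 culture arrays, and all 3 encode core proteins of the ribosome. Their symbols also occur on probe sets that carry several symbols, which the rule did not use. Rpl39, a short protein of the peptide tunnel, read 5.51 to 5.68 in neurons and 5.98 to 6.41 in the glial arrays, a difference of -0.61 ± 0.06 with no overlap. Of the 36 probe sets with several symbols, 32 were lower in neurons and 0 higher (limma, adjusted p under 0.05), with a median of -0.61, beside 26.4% lower and 22.5% higher of all probe sets. Ribosomal protein genes have many processed pseudogenes, and which copies a probe set detects was not tested.

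Members with several probe sets of their own symbol mostly agreed in direction. For Rpl3 the probe set used, with a mean signal of 12.87, gave -0.64 and a dimmer one, at 6.15, gave -0.83. For Rps24 the values were -0.67 at a signal of 12.79 and -1.32 at 4.98. Dimmer probe sets thus gave the larger difference in these 2 genes, but not in Rpl14, with -1.10 at 11.38 and -0.37 at 4.43. The dimmer Rpl14 probe set had culture means of 4.15 to 4.77, below the median of every culture array. For Rps24 the dimmer one was below it in neurons (3.99) and astrocytes (4.50). Which transcripts the dimmer probe sets detect was not tested. The 3 probe sets of Rpsa gave -0.47, -0.75 and -0.66 at signals of 12.21, 12.05 and 10.89. Rpl7 was the exception in direction, with -0.86 at 12.54 and 0.39 ± 0.14 at 6.85 (adjusted p 0.0367, limma with Benjamini-Hochberg).

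The bright members lie near the top of the array's scale, where signal may respond less than in proportion to RNA. On every culture array each bright member was above the 96.9th percentile of all probe sets. On each microglial array all 38 were above the 99th percentile, and on neuronal arrays 26 to 30 were. Rps29 came closest to the highest value of its array, at a distance of 0.30. Over the 38 bright members, the range of the 4 culture means fell with the mean signal, with Pearson's r of -0.60 and Spearman's rho of -0.57 across genes, which share arrays and are not independent replicates. The median range was 0.95 in the 12 members of lowest signal, up to 12.30, and 0.58 in the 12 of highest signal, from 12.69. The 4 brightest members, Rps29, Rpl7a, Rpl27a and Rpl37a, had neuronal differences of -0.12, -0.68, -0.44 and -0.25. The range was thus smaller where signal was higher, and whether compression at high signal reduced the differences was not tested in the cultures.

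**Figure D3:**
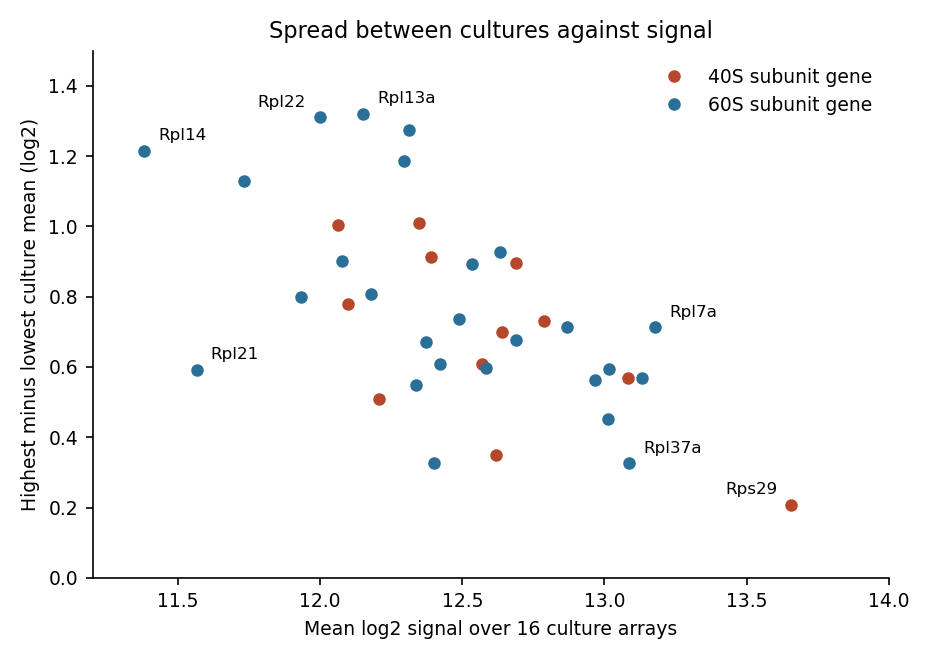
Range of the 4 culture means (highest minus lowest, log2, vertical axis) against mean log2 signal over the 16 culture arrays (horizontal axis) for the 38 bright members, 1 point per gene. Ranges run from 1.32 for Rpl13a down to 0.21 for Rps29, the member of highest signal.

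In the RNA mixtures most values of the bright members lay between those of their parents. In replicate 1, the mean over the bright members was 12.39 in the astrocytic parent, 12.31, 12.27 and 12.06 at neuronal fractions of 0.25, 0.5 and 0.75, and 11.85 in the neuronal parent. In replicate 2 the values were 12.66, 12.55, 12.42, 12.27 and 12.05. The mean fell at each step in both series. Of 114 single values of the bright members, 102 in replicate 1 and 108 in replicate 2 lay between the values of the parents, and 21 and 32 of the 38 members fell at every step. Of 30 values of the 10 other members, 16 in replicate 1 and 15 in replicate 2 lay between the parents, and 1 of the 10 fell at every step in each series. The parents were neuron replicate 1 and astrocyte replicate 1 in replicate 1, and neuron replicate 2 and astrocyte replicate 4 in replicate 2. Of the astrocytic arrays, replicate 1 had the lowest mean over the bright members and replicate 4 the most fibroblast and meningeal marker signal. The same counts were not made over all probe sets, and no test was made.

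Mixture values were close to the fraction-weighted sum of the parents' linear values. The median of observed minus expected log2 values of the bright members ran from 0.02 in NA1 replicate 2 to 0.13 in NAOM replicate 1 over the 10 mixture arrays. Over all probe sets the same median ran from -0.15 to -0.08. Bright members thus lay slightly above their expected values in every mixture, while most probe sets lay below theirs. In NA2 replicate 1, 37 of 38 bright members were above the expected value, with a median of 0.12, and in NA1 replicate 2, 23 of 38 were. Rps27l read 7.38, 7.15 and 6.21 over the rising neuronal fractions in replicate 1 and 7.91, 7.37 and 6.998 in replicate 2.

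**Figure D4:**
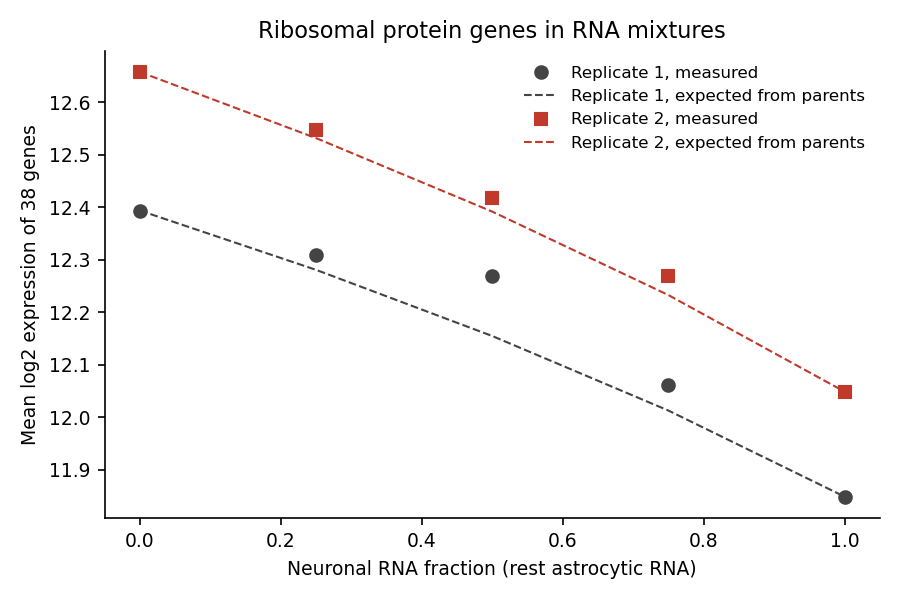
Mean log2 value of the 38 bright members (vertical axis) against the neuronal RNA fraction (horizontal axis, 0 is the astrocytic and 1 the neuronal parent array) in both mixture series, with the value expected from the parents' linear values as a line. Observed means fall from 12.39 to 11.85 in replicate 1 and from 12.66 to 12.05 in replicate 2.

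Other genes of the translation machinery are given from lists, and the shares beside their counts are those of all probe sets. Of 11 measured genes of other TOP mRNAs, 9 were lower in neurons and 0 higher (limma; 0 also at an unadjusted p under 0.05), beside 26.4% and 22.5%, with a median difference of -0.44. Naca, of the nascent-chain complex, differed by -0.99 ± 0.07 and Rack1, a scaffold on the small subunit, by -0.93 ± 0.09. Hnrnpa1, an RNA-binding protein, had a value of -0.27 ± 0.15 and did not pass. Of 25 initiation factors, 17 were lower and 2 higher in neurons, beside the same 26.4% and 22.5%, with a median of -0.40. They included the eIF3 subunits Eif3k, at -0.93 ± 0.08, and Eif3m, at -0.99 ± 0.09, and the helicase Eif4a1, at -0.85 ± 0.11. These lists share members with one another.

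Of 7 measured genes listed as elongation factors by symbol alone, 5 were lower and 2 higher in neurons, beside 26.4% and 22.5% of all probe sets. Eef1a2, the elongation factor 1-alpha form of neurons and muscle, was higher by 5.11 ± 0.22, and Eef1e1 by 0.48 ± 0.10. Eef1d, of the exchange complex, was lower by 1.69 on the log2 scale, with a difference of -1.69 ± 0.08.

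Of 28 ribosome assembly genes, 16 were lower in neurons and 4 higher, beside 26.4% and 22.5% of all probe sets, with a median of -0.37. Against the mean of the other cultures, 19 were higher in oligodendrocytes, beside 15.6%. Fbl, the rRNA methyltransferase fibrillarin, differed in neurons by -1.29 ± 0.12, Pes1, needed for large-subunit assembly, by -1.18 ± 0.09, and Heatr1, needed for rRNA synthesis, by -0.67 ± 0.22. Astrocytes were lower than oligodendrocytes in 20 of these 28 genes, beside 17.9% of all probe sets. Of 15 genes of mTORC1 and translation control, 4 were lower and 7 higher in neurons, with a median of 0.21, and the lower share was near the 26.4% of all probe sets while 22.5% of those were higher. Mycn, a transcription factor of the Myc family, was higher by 2.95 ± 0.17 and the translation repressor Eif4ebp1 differed by -1.82 ± 0.21, while Deptor, an mTOR inhibitor, had a value of -0.69 ± 0.48 and did not pass.

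Mitochondrial ribosomal proteins, which build a separate ribosome, had shares near those of all probe sets. Of 73 measured, 22 were lower and 18 higher in neurons, beside 26.4% and 22.5% of all probe sets, and their median was -0.10 beside -0.07. Mrpl32 differed by -1.06 ± 0.09 and Mrps6 by -0.74 ± 0.16, and Mrpl42 was higher by 0.57 ± 0.18. Cell division genes were lower in neurons in 10 of 11 cases, beside 26.4% of all probe sets, with a median of -3.44, and Cdk1, the mitotic kinase, differed by -4.95 ± 0.12. Their mean level was 4.83 to 5.07 in neuronal arrays and 7.73 to 8.45 in the glial arrays. It therefore moved with the ribosomal protein values, and its part in them was not tested.

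**Figure D5:**
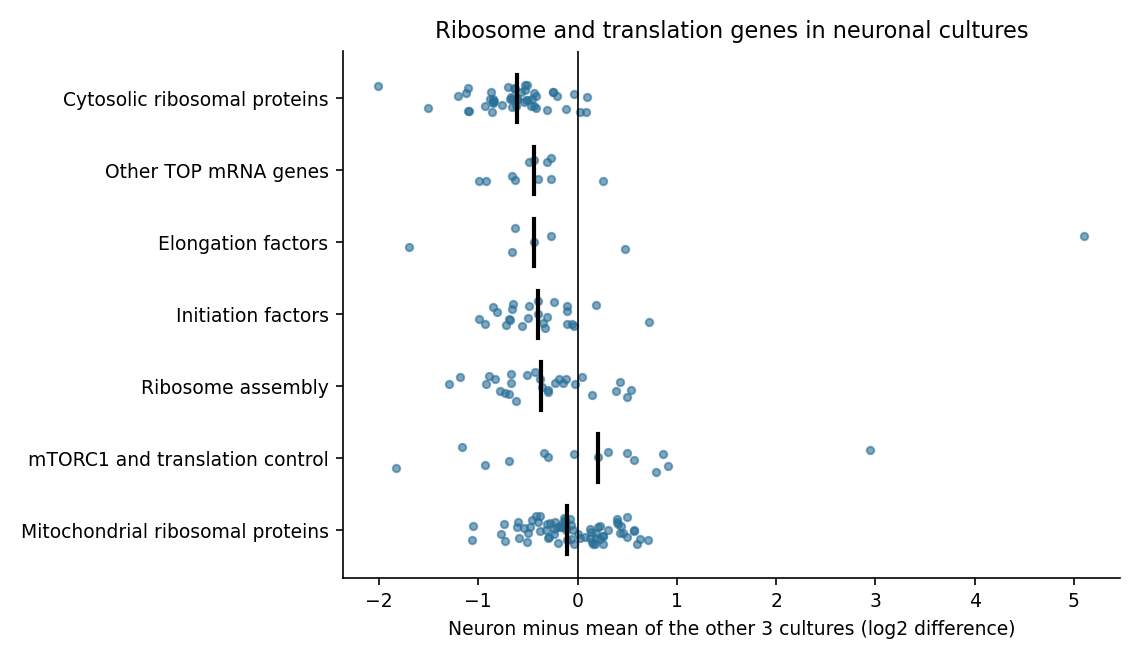
Log2 difference between neuronal cultures and the mean of the other 3 (horizontal axis) for the genes of each list, 1 point per gene, with the median of the list as a line. The cytosolic ribosomal proteins have a median of -0.61 and the mitochondrial ones -0.10, and Eef1a2 lies at 5.11.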

How the data were processed

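RNA from 16 cultures and 10 mixtures was hybridised to Affymetrix arrays. The deposited log2 values were made by the authors with RMA in the affy package, per the submitters' processing notes, and versions are not given in the sources used here. RMA corrects background, makes the distributions of all arrays alike and summarises probes, so values are relative to each array's other RNAs. Of 31099 probe sets, 57 controls were left out and 31042 tested without a filter. Probe sets with 1 gene symbol in the platform annotation numbered 20826, those with several 436 and those with none 9780. Gene IDs of 46 of the 48 members matched RefSeq on GRCr8, and 0 symbols changed.

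Groups followed titles and cell types. In R 4.3.3, limma 3.58.1 (functions lmFit, then eBayes) estimated 1 mean per culture from the 16 culture arrays. Contrasts were each culture against the mean of the other 3, the 6 pairs and an F test, with Benjamini-Hochberg adjustment over the 31042 probe sets and calls at an adjusted p under 0.05, with and without a log2 difference of at least 1. Errors are standard errors of the contrast unless marked SD. The number of arrays limits the precision. The fit was tested on simulated data. Expected mixture values are fraction-weighted sums of the linear parent values. Figures were drawn with matplotlib 3.10.9.

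Named members were the 12 with the largest and 6 with the smallest range of culture means, the 4 of highest and 4 of lowest signal, and paralogs with their main copies. In each list the 3 genes of largest range were named. The members and lists were chosen with earlier results of these data known. Alternatives were a replicate block, other normalizations, a filter on dim probe sets, array weights, another variance model, other probe sets per gene, fits on pairs and leaving out arrays. Leaving out neuron replicates 3 and 4, or astrocyte and microglia replicates 4, was chosen after seeing the data.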

Additional observations from a re-analysis of the deposited data

Results flagged for a closer look

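Among 120 groups of 4 arrays examined (named members and the bright mean in each culture), 12 had 1 array whose gap to the nearest other, as a share of the group's range, was above Dixon's critical value. Chance gives about 1 in 20 groups, or 6.0 here. The groups share arrays and the bright mean includes flagged members, so they are not independent. The 12 therefore cannot be judged against the 6.0. Astrocyte replicate 1 was the low array in 6 members. It read 12.36 for Rpl12 (others 12.69 to 12.75), 12.13 for Rpl18 (12.41 to 12.43), 12.12 for Rpl35 (12.49 to 12.56) and 12.99 for Rpl37a (13.28 to 13.33). It read 11.87 for Rps15 (12.15 to 12.21) and 13.43 for Rps29 (13.63 to 13.65). The mean of the bright members was also low in it, at 12.39 against 12.66 to 12.71. Neuron replicate 1 was low for Rpl26, at 12.38 against 12.67 to 12.73, and neuron replicate 2 was high for Rpl7l1, at 8.79 against 8.38 to 8.45. Microglia replicate 4 was high for Rpl24, at 12.34 against 12.10. Oligodendrocyte replicate 3 was high for Rpl27a, at 13.31 against 13.12 to 13.14, and for Rpl39l1, at 3.64 against 3.41 to 3.44.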

How the results depend on the processing

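The 42 members lower in neurons than in the mean of the other 3 numbered 41 to 42 when single arrays were left out and 32 to 42 over the other alternatives, lowest with a log2 difference of at least 0.5. Members lower than in each single glial culture stayed within 1.5 times their counts under all alternatives run. Quantile normalization of the cultures alone moved the median of the members from -0.61 to -0.45. Small counts and the counts between glia moved more, and the cause was not tested. In what follows, a culture named alone is set against the mean of the other 3.

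Leaving out single arrays gave 9 to 24 members higher and 2 to 4 lower in astrocytes, 6 to 16 higher in oligodendrocytes and 0 to 1 lower in microglia. It gave 0 to 2 higher in neurons than in astrocytes and 0 to 1 higher in neurons than in microglia. Between glia it gave 0 to 2 higher and 3 to 5 lower in astrocytes than in oligodendrocytes, 5 to 12 lower in astrocytes than in microglia, and 1 to 2 higher and 1 to 7 lower in oligodendrocytes than in microglia. With a log2 difference of at least 1, it gave 3 to 7 lower in neurons than in oligodendrocytes, 0 to 1 higher in oligodendrocytes and 0 to 1 lower in oligodendrocytes than in microglia.

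Replicate numbers were not used to pair the cultures in the main fit. Over 24 pairs of same-numbered arrays the correlation of deviations ran from -0.11 to 0.18, and 5 were above 0.1. Pairs of different numbers were not examined, so these values cannot show whether cultures of the same number were related. With the replicate number as a block, 42 members were lower in neurons, 37 higher in microglia, 16 in oligodendrocytes and 13 in astrocytes, and the 1 member lower in microglia became 0.

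The 1 member lower in microglia also became 0 with median centring, with array weights, with a log2 difference of at least 0.5, and under both settings chosen after seeing the data. The 3 lower in oligodendrocytes than in microglia became 6 with median centring, array weights or a trended and robust variance. Quantile normalization of the cultures alone gave 1 higher in neurons than in microglia, 0 higher in astrocytes than in oligodendrocytes and 1 higher in oligodendrocytes than in microglia. Array weights gave 23 higher in astrocytes, 3 higher in neurons than in astrocytes and 3 higher in astrocytes than in oligodendrocytes. Removing the dimmest 25% of probe sets took Rpl39l1 out, which left 0 higher in neurons than in astrocytes.

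With the lowest-signal probe set of each gene, 1 member was higher in neurons (Rpl7, at 0.39), 2 were higher in neurons than in astrocytes and 1 was higher in oligodendrocytes than in microglia. With a log2 difference of at least 1 it gave 1 higher in oligodendrocytes, 2 lower in astrocytes than in oligodendrocytes and 2 lower in astrocytes than in microglia. Fits on the 2 cultures alone gave 2 higher in neurons than in astrocytes, 0 higher in astrocytes than in oligodendrocytes and 6 lower in astrocytes than in microglia.

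Without neuron replicates 3 and 4, 2 members were lower in astrocytes, 0 higher in neurons than in astrocytes, and 8 lower in neurons than in oligodendrocytes by at least 1. Without astrocyte and microglia replicates 4, 0 were higher in astrocytes than in oligodendrocytes, 7 lower in astrocytes than in microglia, and 1 lower in oligodendrocytes than in microglia, 0 by at least 1.

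A log2 difference of at least 0.5 left 2 higher and 1 lower in astrocytes, 3 higher in oligodendrocytes and 7 higher in microglia. It left 0 higher in neurons than in astrocytes, 0 higher and 2 lower in astrocytes than in oligodendrocytes, 1 lower in astrocytes than in microglia, and 1 higher and 1 lower in oligodendrocytes than in microglia.

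Of 752 values of named members in neurons, 742 kept direction and call, 4 lost the call and 6 changed sign. Besides Rpl7, Rpl26l1 was 0.029 without neuron replicate 2 and 0.0043 without neuron replicate 3, and ran from -0.084 to 0.029 with single arrays left out. Rpl3l was -0.015 without neuron replicate 4, -0.0087 without oligodendrocyte replicate 1 and -0.060 without neuron replicates 3 and 4, and ran from -0.015 to 0.073 with single arrays left out. Signal near the top of the scale and probe sets shared by near-identical copies limit what single members show.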
